A study of Mus musculus with 4 samples.

Results

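The genes described here are 9 genes that mark or specify corticospinal neurons, the layer 5 cells of the cerebral cortex whose axons reach the spinal cord: Fezf2, Bcl11b, Bcl6, Pou3f1, Neurod2, Neurod6, Ldb2, Crym and Npr3. They were chosen by name, as known identity genes, and are 9 of the 32285 genes in the count tables. All 9 passed the filter on low counts in every comparison. Transcripts of single brain nuclei from adult C57BL/6 mice were sequenced in 4 libraries. Neurons with axons in the cord had been transduced from the cervical level with AAV2-Retro, a virus that enters at axon ends, and tissue was collected 2 weeks later. The virus carried Sox11, a transcription factor of developing neurons, in the libraries Sox11 1 and Sox11 2, and a control in Control 1 and Control 2. Both groups carried the viral nuclear fluorophore by which nuclei were sorted. The control construct, the promoter of the vectors, the age in weeks and the number of animals in each library are not given in the labels. The p-values of Sox11 against Control thus measure the spread between these libraries, which may be technical. In fits with the library as a term, p-values measure only the spread left once the level of each library is taken out.

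Layer 5 projection neurons acquire their identity through a small network of transcription factors. Fezf2 is needed for the subcerebral fate and acts upstream of Bcl11b, also called Ctip2, which is needed for corticospinal axons to grow and bundle. Neurod2 and Neurod6 are basic helix-loop-helix factors of postmitotic cortical excitatory neurons at large, and Crym and Npr3 are used as markers of corticospinal cells rather than as regulators.

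Within the Sox11 libraries, nuclei that carried RNA of Gpc2 or Zfp57 had more Neurod6 and Bcl11b and less Npr3 than the other cortical nuclei. These are 3 of 9 genes where 30.5% of all genes were called, and without the library term none of the 9 was called. RefSeq promoter entries matched 6 of the 9 genes. The 250 bases before the annotated start are shown for Neurod6 and Npr3, which differed in opposite directions, and for Neurod2, the close relative of Neurod6 that did not pass the test. They lie at chr6:55681264-55681513, chr15:11907372-11907621 and chr11:98329646-98329895 of GRCm38.p6 (mm10), all on the minus strand, and are written 5′ to 3′ along the gene.
Neurod6: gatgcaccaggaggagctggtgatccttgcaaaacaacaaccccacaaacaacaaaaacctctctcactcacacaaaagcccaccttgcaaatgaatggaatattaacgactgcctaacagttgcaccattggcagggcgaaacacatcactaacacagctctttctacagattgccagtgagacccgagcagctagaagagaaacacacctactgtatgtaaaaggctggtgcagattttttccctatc
Npr3: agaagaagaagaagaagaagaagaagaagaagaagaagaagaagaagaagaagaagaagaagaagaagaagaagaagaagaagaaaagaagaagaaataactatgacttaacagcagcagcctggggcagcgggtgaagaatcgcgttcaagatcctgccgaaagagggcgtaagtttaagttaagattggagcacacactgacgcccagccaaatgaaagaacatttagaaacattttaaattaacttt
Neurod2: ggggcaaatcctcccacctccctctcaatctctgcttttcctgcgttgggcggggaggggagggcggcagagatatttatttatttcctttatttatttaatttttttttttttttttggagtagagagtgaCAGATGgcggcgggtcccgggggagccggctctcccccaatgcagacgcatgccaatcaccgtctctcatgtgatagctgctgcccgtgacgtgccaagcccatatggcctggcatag
Capitals mark a match to CAGATG, an E-box form bound by NeuroD factors, which begins 118 bases before the start of Neurod2. CAGATG and 2 forms of the Sox motif, ACAAAG and ACAATG, were searched on both strands. CAGATG occurred in 14.4%, ACAAAG in 16.5% and ACAATG in 10.7% of 32851 RefSeq promoter windows of 250 bases, and neither Sox form occurred in the 3 windows shown. Among the 7 entries of the 6 matched genes, ACAAAG occurred in 1, an entry of Bcl6, 212 bases before its start, and ACAATG in none. The GC content was 46% for Neurod6, 38.8% for Npr3, whose window opens with a repeat of AAG, and 52.8% for Neurod2.

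Cortical nuclei were taken without use of the 9 genes: at least 1000 detected genes, at least 1 unique molecular identifier (UMI, the tag of 1 captured RNA molecule) of Slc17a7, the glutamate transporter of cortical excitatory neurons, and none of Gad1, Gad2 or Slc17a6. This gave 5067 of 12582 barcodes, with 1212 and 914 in Control 1 and 2, and 1307 and 1634 in Sox11 1 and 2. Their median UMIs per nucleus were 13811.5, 15268, 20424 and 15664.5 in the same order. Subcortical excitatory nuclei, with Slc17a6 and without Slc17a7 or a Gad gene, numbered 911, 735, 388 and 1081. Cortical nuclei made up 61.4% of the nuclei of Sox11 1 with 1000 genes and 36.6% to 40.2% in the other 3 libraries, and the part of this difference in the results was not tested. The cortical label was checked on 12 pallial neuron genes, which summed to 2295 to 2513 CPM (the UMIs of a gene scaled to a fixed total of 1000000 gene UMIs in the same nuclei) in the cortical sums and to 247 to 359 CPM in the subcortical sums. In the cortical sums 12 hindbrain Hox genes summed to 0.851 to 1.61 CPM, 6 inhibitory genes to 2.04 to 5.24 CPM and 6 oligodendrocyte genes to 55.0 to 72.8 CPM. Any 2 libraries shared at most 3 barcodes. The Cell Ranger version in the file headers was 7.1.0 in both Control libraries, 7.2.0 in Sox11 1 and 8.0.0 in Sox11 2, so the software and the group cannot be told apart.

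The Sox11 gene itself read 3.02 and 3.38 CPM in the Control and 3.06 and 2.85 CPM in the Sox11 libraries; a 3′ tag need not assign vector RNA to the gene, so this checks no label. Gpc2, a cell surface proteoglycan made by young neurons, read 0.252 and 0.121 CPM in the Control and 30.7 and 17.3 CPM in the Sox11 libraries. Zfp57, a zinc finger protein of imprinted regions, read 0.655 and 0.905 against 27.3 and 26.8 CPM. These 2 genes were chosen with their difference known and are used below only to split nuclei. A cortical nucleus with a UMI of either is called positive: 18 (1.49%) and 15 (1.64%) in the Control libraries, 733 (56.1%) in Sox11 1 and 624 (38.2%) in Sox11 2. Of the nuclei with Gpc2, 296 of 524 in Sox11 1 and 187 of 344 in Sox11 2 also had Zfp57. A nucleus without a UMI of either is called negative, and it may carry RNA of these genes that was not captured.

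Summed over all cortical nuclei, none of the 9 genes passed the test between Sox11 and Control (edgeR's quasi-likelihood test, Benjamini-Hochberg adjusted p under 0.05 over all genes). Neurod6 and Bcl11b had an unadjusted p under 0.05, and DESeq2 called 1 of the 9, Neurod6. Of 17231 genes tested, 2.43% were called, 1.8% higher and 0.627% lower in Sox11 (310 and 108 genes). The median log2 fold change was 0.14 over the 9 genes and 0.0055 over all genes. The level of 3 of the 9 genes, Bcl11b, Neurod2 and Neurod6, was higher in both Sox11 libraries than in both Control libraries, that of Npr3 was lower in both, and 5 overlapped. Of all genes 49.7% did not overlap, 25.9% higher and 23.8% lower, so 4 of 9 is close to the background.

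**Figure D1:**
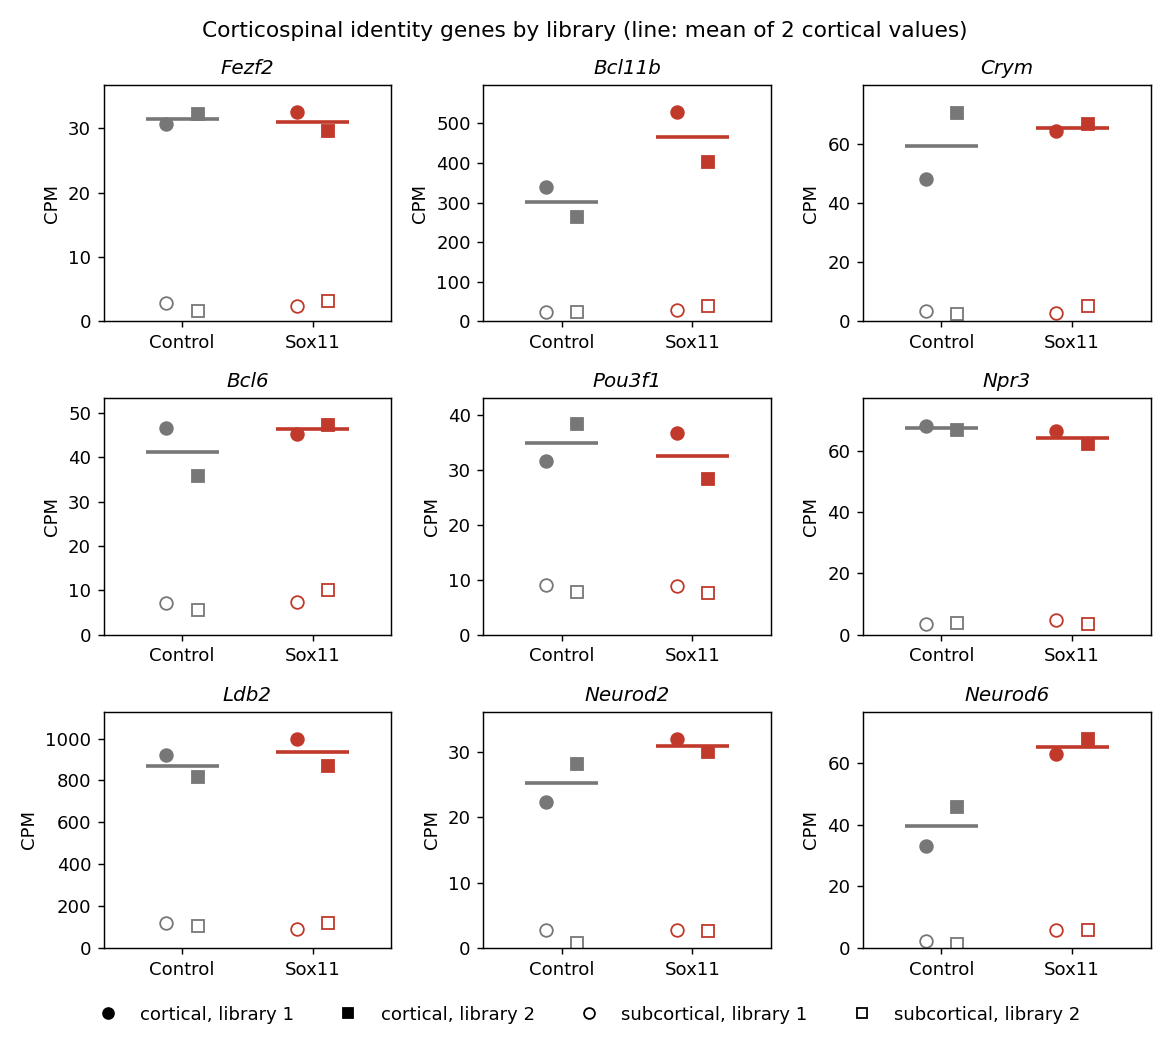
Summed level of each of the 9 genes (CPM, own scale per panel) in Control and Sox11 libraries; filled symbols are cortical and open symbols subcortical sums, circles library 1, squares library 2, and lines the mean of the 2 cortical libraries. Neurod6 and Bcl11b are the genes whose cortical Sox11 libraries sit farthest above Control (Neurod6 62.7 and 67.6 against 33.0 and 45.8 CPM).

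Fezf2 (chr14:12342094-12348189, mm10, minus strand), the zinc finger factor at the head of the network, read 30.6 and 32.2 CPM in the Control libraries and 32.5 and 29.5 CPM with Sox11. The Sox11 values enclosed the Control values, and the means were 31.4 ± 1.11 and 31.0 ± 2.10 CPM (SD, n = 2 libraries each). The log2 fold change was -0.03 ± 0.17 (SE; edgeR adjusted p = 0.943).

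Bcl11b (chr12:107910403-108003602, minus strand), the zinc finger factor downstream of Fezf2, read 338.4 and 263.1 CPM in Control and 527.9 and 402.2 CPM in Sox11. Both Sox11 libraries lay above both Control libraries, and the Control libraries differed from each other as well. The log2 fold change was 0.61 ± 0.20 (SE; edgeR adjusted p = 0.146). Without Control 1 it was 0.85 with an edgeR adjusted p of 0.0215, and the fit with the replicate block also called it (0.62, edgeR adjusted p = 0.0306); over all settings it ran from 0.38 to 0.85.

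Bcl6, a zinc finger transcriptional repressor (chr16:23965052-23988852, minus strand), read 46.7 and 35.7 CPM in Control and 45.4 and 47.3 CPM in Sox11. Pou3f1, a POU factor also called SCIP or Oct6 (chr4:124656807-124660655, plus strand), read 31.6 and 38.2 against 36.7 and 28.3 CPM. Both overlapped between the groups, with log2 fold changes of 0.15 ± 0.19 (edgeR adjusted p = 0.737) for Bcl6 and -0.11 ± 0.19 (edgeR adjusted p = 0.804) for Pou3f1. Bcl6 overlaps Gm37419 and Pou3f1 overlaps Gm2164 in the annotation, and whether counting used strand is not given, so reads may be split between them.

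Neurod6, also called Nex, a factor of postmitotic cortical excitatory neurons (chr6:55677822-55681263, minus strand), read 33.0 and 45.8 CPM in Control and 62.7 and 67.6 CPM in Sox11. The groups did not overlap, with means of 39.4 ± 9.03 and 65.2 ± 3.47 CPM (SD, n = 2 libraries each). The log2 fold change was 0.72 ± 0.18 (SE; edgeR adjusted p = 0.0791, unadjusted p = 0.00347). The call turned on the setting: DESeq2 gave an adjusted p of 0.0230, the replicate block one of 0.0216 by edgeR, and leaving out Control 2 gave a log2 fold change of 0.90 with an edgeR adjusted p of 0.0216. Over all settings it ran from 0.54 to 0.90, with adjusted p from 0.0216 to 0.320.

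Neurod2, a related factor that also acts at maturing synapses (chr11:98325415-98329648, minus strand), read 22.3 and 28.1 CPM in Control and 31.9 and 29.9 CPM in Sox11. The groups did not overlap, but by a margin smaller than the gap between the Control libraries. The log2 fold change was 0.29 ± 0.18 (edgeR adjusted p = 0.431).

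The cofactor and the markers had log2 fold changes between -0.08 and 0.14. Ldb2, a LIM domain binding protein (chr5:44472132-44799680, minus strand, overlapping Gm43507 and Gm3364), read 919.2 and 816.2 CPM in Control and 999.8 and 868.3 CPM in Sox11. Crym, a thyroid hormone binding protein (chr7:120186380-120202111, minus strand), read 48.0 and 70.5 against 64.1 and 66.6 CPM. Npr3, the clearance receptor for natriuretic peptides (chr15:11839896-11907287, minus strand, overlapping Gm5144), read 68.3 and 66.8 against 66.5 and 62.1 CPM. Npr3 alone of the 3 did not overlap, its higher Sox11 library lying just under its lower Control library. The log2 fold changes were 0.09 ± 0.16 for Ldb2, 0.14 ± 0.19 for Crym and -0.08 ± 0.15 for Npr3 (edgeR adjusted p = 0.821, 0.753 and 0.824).

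The share of nuclei with a UMI was compared after each nucleus was thinned to 5000 UMIs, which left out 110, 20, 7 and 150 shallower cortical nuclei. Bcl11b was detected in 74.0% (exact 95% binomial interval 71.4 to 76.6) and 69.4% (66.2 to 72.4) of Control nuclei and in 89.5% (87.7 to 91.1) and 82.9% (80.9 to 84.8) of Sox11 nuclei. Neurod6 was detected in 17.2% (15.0 to 19.5) and 19.9% (17.3 to 22.7) against 24.9% (22.6 to 27.4) and 30.1% (27.7 to 32.5). The mean difference was 14.5 percentage points for Bcl11b and 8.96 for Neurod6, and neither overlapped between groups; 2 libraries against 2 cannot give an exact two-sided p below 0.333. Fezf2 was detected in 14.9% and 13.5% against 14.4% and 14.2%, and Npr3 in 24.8% and 25.2% against 25.3% and 24.5%, both with overlapping groups. Some genes depended on the depth chosen: at 10000 UMIs Npr3 was detected in 48.3% and 46.2% against 40.5% and 41.3%, and Neurod2 in 18.8% and 24.6% against 28.3% and 25.1%, without overlap, while Bcl6 did not overlap at 5000 UMIs and overlapped at 2500 and 10000. For Fezf2 the groups did not overlap at 2500 UMIs, with means of 8.34% in Control and 8.16% in Sox11. With Slc17a7 of 3 or more UMIs they did not overlap in the other direction, at 12.6% and 14.0%. Under that gate Npr3 was higher in Sox11 without overlap, at means of 24.8% in Control and 27.2% in Sox11. The share of all genes that do not overlap was not computed for these detection shares, so no count over the 9 genes is read. Intervals cover counting error only.

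Without thinning, the shares for Bcl11b were 87.4%, 92.5%, 98.4% and 93.8%, and those for Neurod6 35.2%, 47.3%, 61.3% and 58.1%, in the order Control 1, Control 2, Sox11 1, Sox11 2. For Fezf2 they were 36.9%, 40.7%, 47.8% and 40.9%, with the deepest library, Sox11 1, highest. Subcortical nuclei, which should lack the corticospinal genes, give the background at the same 5000 UMIs; their median depths before thinning were 9200, 11262, 16934.5 and 11265 UMIs. There Fezf2 was detected in 0.964%, 1.19%, 1.55% and 1.50% of nuclei, Bcl11b in 10.7%, 10.9%, 11.1% and 15.6%, and Neurod6 in 0.964%, 0.448%, 2.85% and 3.34%. All 3 cortical shares lay above this reference in all 4 libraries.

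The split compares nuclei of the same Sox11 library. Between positive and negative nuclei, Neurod6 and Bcl11b were higher and Npr3 was lower, while the other 6 did not pass the test (edgeR with the library as a term, 1 residual degree of freedom). Of 15945 genes 30.5% were called, 14.9% higher and 15.5% lower, so 3 of 9 is near the background. The median log2 difference was 0.02 over the 9 genes and -0.0056 over all genes. Without the library term none of the 9 and 7 of all genes were called, with edgeR adjusted p of 0.122 for Neurod6, 0.173 for Npr3 and 0.503 for Bcl11b. Positive and negative nuclei had median UMIs of 19846 and 21052 in Sox11 1 and of 18232 and 13652.5 in Sox11 2.

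**Figure D2:**
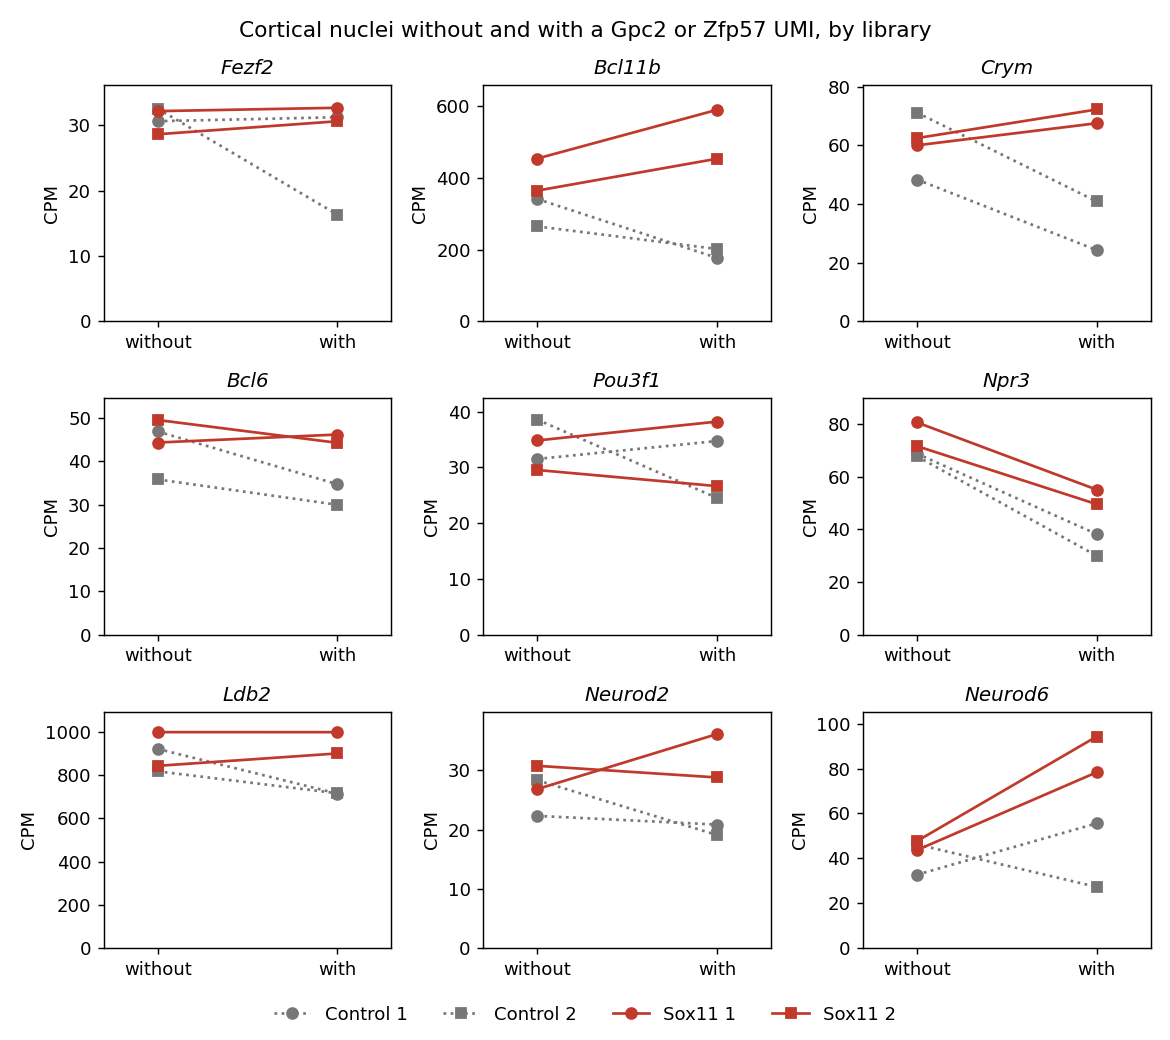
Level of each gene (CPM) in cortical nuclei without and with a Gpc2 or Zfp57 UMI, 1 line per library, dotted for Control and solid for Sox11. Both Sox11 lines go up for Neurod6 and Bcl11b and down for Npr3; the Control points with a UMI rest on 18 and 15 nuclei.

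Neurod6 read 78.3 CPM in positive and 43.7 CPM in negative nuclei of Sox11 1, and 94.3 and 47.7 CPM in Sox11 2. Both positive sums were above every Control and negative sum, and the log2 difference was 0.88 ± 0.067 (SE; edgeR adjusted p = 6.44e-13). Thinned to 5000 UMIs, Neurod6 was detected in 30.9% (exact 95% interval 27.5 to 34.4) of positive and 17.3% (14.2 to 20.6) of negative nuclei of Sox11 1, and in 37.7% (33.8 to 41.7) and 24.9% (22.0 to 27.8) of Sox11 2.

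Bcl11b read 588.9 CPM in positive and 453.4 CPM in negative nuclei of Sox11 1, and 452.9 and 364.2 CPM in Sox11 2. Here the negative nuclei were themselves above both Control libraries, and the log2 difference was 0.31 ± 0.057 (SE; edgeR adjusted p = 5.76e-05). The thinned shares were 92.9% (90.8 to 94.6) and 85.2% (82.0 to 88.0) in Sox11 1 and 87.6% (84.7 to 90.2) and 79.7% (76.9 to 82.3) in Sox11 2.

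Npr3 read 55.0 CPM in positive and 80.5 CPM in negative nuclei of Sox11 1, and 49.5 and 71.6 CPM in Sox11 2. Positive nuclei were below and negative nuclei above the Control libraries (68.3 and 66.8 CPM). The log2 difference was -0.58 ± 0.066 (SE; edgeR adjusted p = 7.83e-09), and the thinned shares were 21.6% (18.7 to 24.7) against 30.1% (26.4 to 34.1) and 18.5% (15.5 to 21.9) against 28.6% (25.6 to 31.7).

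The other 6 genes did not pass the test between positive and negative nuclei. Fezf2 read 32.7 and 32.2 CPM in Sox11 1 and 30.6 and 28.6 CPM in Sox11 2, a log2 difference of 0.02 ± 0.082 (edgeR adjusted p = 0.888) whose sign changed under 5 alternatives. Crym read 67.5 and 60.0 CPM, and 72.2 and 62.4 CPM, higher in the positive nuclei of both libraries at an edgeR adjusted p of 0.0769. Bcl6 read 46.2 and 44.3, and 44.3 and 49.5 CPM; Pou3f1 read 38.2 and 34.8, and 26.6 and 29.5 CPM; Neurod2 read 36.1 and 26.8, and 28.8 and 30.7 CPM. These 3 pointed opposite ways in the 2 libraries, which for Neurod2 contrasts with the shared direction of Neurod6. Ldb2 read 999.7 and 999.9 CPM in Sox11 1 and 901.2 and 843.7 CPM in Sox11 2.

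The 3 calls were made again with nuclei thinned to 5000 UMIs, with nuclei of 10000 to 40000 UMIs, with Gpc2 or Zfp57 alone as the split and with at least 2 UMIs as positive. Over all settings the log2 difference was 0.69 to 0.96 for Neurod6, 0.24 to 0.32 for Bcl11b and -0.64 to -0.43 for Npr3. Markers of other cells also differed in the split: 6 microglia genes summed to 19.3 CPM in positive and 26.4 CPM in negative nuclei of Sox11 1 and to 19.1 and 27.3 CPM in Sox11 2, and 6 oligodendrocyte genes to 69.4 and 77.0, and 51.9 and 62.1 CPM. Single myelin genes went both ways: Mog was higher in positive nuclei by a log2 difference of 0.94 (edgeR adjusted p = 0.00336), Mobp was at -2.08 and Mbp at -0.25; the microglial P2ry12 was at -0.81. Against Control Mog was at 2.05 in positive nuclei (edgeR adjusted p = 0.0131). In each of these 4 sums 5 of the 6 microglia genes and all 6 oligodendrocyte genes had a UMI, and the part of these RNAs in the result was not tested. In the few positive nuclei of the Control libraries Bcl11b read 177.1 and 201.7 CPM against 340.8 and 264.5 CPM in negative nuclei, and Npr3 38.2 and 30.0 against 68.7 and 67.7 CPM. For Npr3 that is the same direction as in Sox11, and for Bcl11b the opposite one. Neurod6 was higher in the positive nuclei of Control 1 (55.6 against 32.7 CPM) and lower in those of Control 2 (27.3 against 46.2 CPM). Crym, Bcl6, Ldb2 and Neurod2 were also lower in the positive nuclei of both Control libraries, so that direction is not particular to Npr3.

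The level was then followed over the number of Gpc2 and Zfp57 UMIs in a nucleus (0, 1 to 2, and 3 or more of them, counted at full depth), after thinning every nucleus to 5000 UMIs. Neurod6 read 44.0, 80.0 and 89.5 CPM in Sox11 1 and 63.5, 107.5 and 110.9 CPM in Sox11 2. Bcl11b read 481, 609 and 619 CPM in Sox11 1 and 372, 480 and 435 CPM in Sox11 2. For both genes most of the step lay between 0 and 1 to 2 UMIs. Npr3 read 73.9, 50.1 and 59.1 CPM in Sox11 1 and 72.3, 45.8 and 38.0 CPM in Sox11 2, so its order past the first step differed between the libraries. Fezf2 read 37.0, 27.8 and 24.9 CPM in Sox11 1 and 29.4, 34.7 and 31.5 CPM in Sox11 2, with no shared direction. The bins held 568, 475 and 257 nuclei in Sox11 1 and 885, 415 and 184 in Sox11 2, and these values carry no test.

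**Figure D3:**
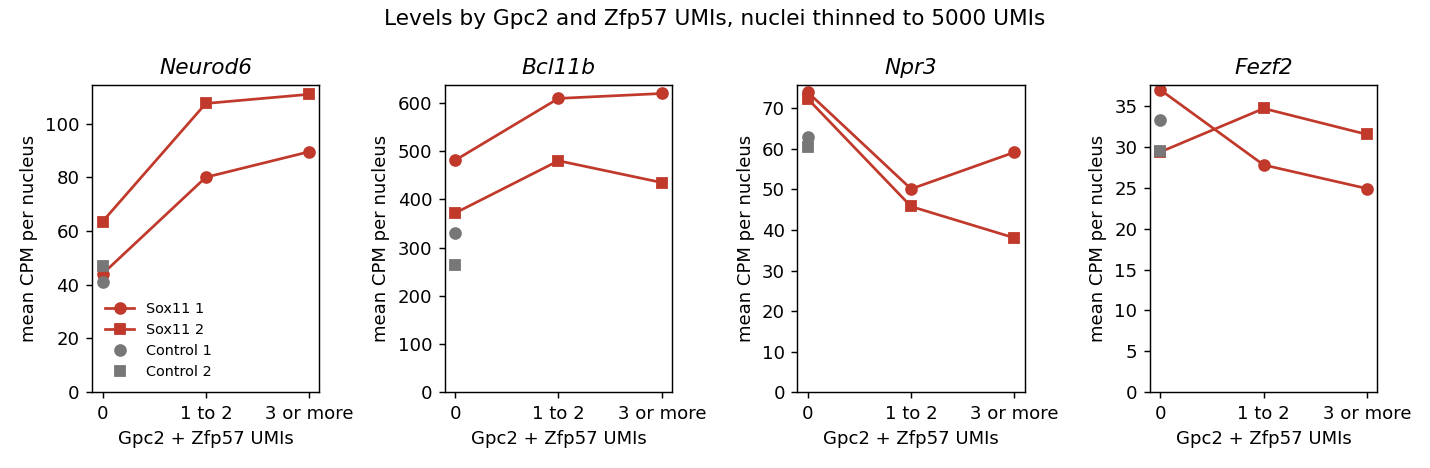
Mean level (CPM, nuclei thinned to 5000 UMIs) of Neurod6, Bcl11b, Npr3 and Fezf2 in cortical nuclei with 0, 1 to 2, and 3 or more Gpc2 and Zfp57 UMIs; lines are the Sox11 libraries and grey symbols the Control libraries at 0. Neurod6 goes from 44.0 to 89.5 CPM in Sox11 1 and from 63.5 to 110.9 CPM in Sox11 2.

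Each side of the split was also set against the Control libraries. The positive nuclei of the Sox11 libraries and all Control nuclei differed in Neurod6, at a log2 fold change of 1.12 with an SE of 0.20 (edgeR adjusted p = 0.00758), and in Bcl11b, higher by 0.77 ± 0.20 (edgeR adjusted p = 0.0336). That is 2 of 9, against 13.7% of 16171 genes called, 7.61% higher and 6.1% lower. Neurod6 was called in all 10 fits of this comparison, with log2 fold changes of 0.93 to 1.30. Bcl11b was not called without Control 2 (0.53, edgeR adjusted p = 0.0788) or without Sox11 1 (0.59, edgeR adjusted p = 0.128). The log2 fold change was -0.39 ± 0.16 for Npr3 (edgeR adjusted p = 0.139) and 0.35 for Neurod2 (edgeR adjusted p = 0.261). The levels of 4 of the 9 genes did not overlap, against 58.5% of all genes (30.7% higher, 27.8% lower).

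Between the negative nuclei of Sox11 and Control none of the 9 genes passed the edgeR test, where 0.0185% of 16191 genes, 3 in all, were called. At an unadjusted p under 0.05 it was 1 of the 9, Bcl11b, and DESeq2 called none of the 9 and 108 of all genes. The log2 fold change was 0.43 ± 0.18 for Bcl11b (edgeR adjusted p = 0.546), 0.22 ± 0.19 for Neurod6 (edgeR adjusted p = 0.808) and 0.16 for Npr3. The levels of Bcl11b and Npr3 were higher in both Sox11 libraries, and the other 7 genes overlapped, against 38.8% of all genes that did not overlap (19.3% higher, 19.5% lower). The positive and the negative side share the Control libraries, so the 2 comparisons are not independent. Nuclei whose Gpc2 and Zfp57 RNA was missed count as negative, so the negative side cannot be taken as a set without response.

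**Figure D4:**
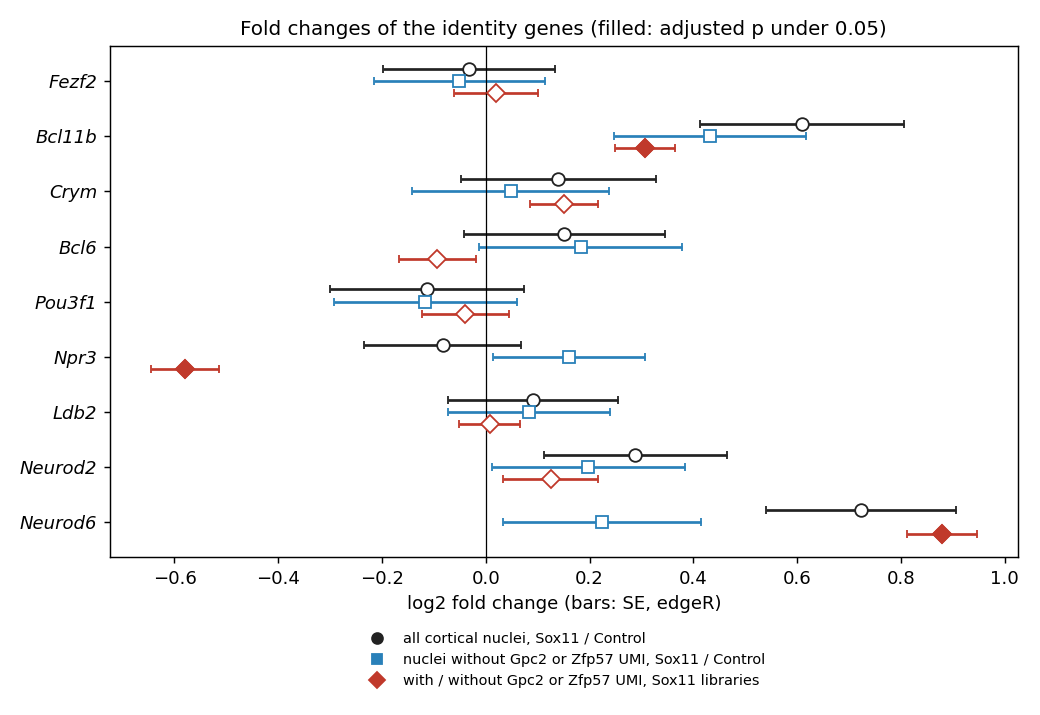
Log2 fold change with its SE for each of the 9 genes in 3 comparisons of cortical nuclei; filled symbols have an edgeR adjusted p under 0.05. The comparisons are all cortical nuclei and negative nuclei, each Sox11 against Control, and positive against negative nuclei of the Sox11 libraries. Neurod6, Bcl11b and Npr3 (at -0.58) are filled in positive against negative nuclei, and no gene is filled in the others.

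How many of the 9 genes a nucleus expressed was counted after thinning to 5000 UMIs. A cortical nucleus had a UMI of 2.91 of them on average in Control 1 and of 3.03 in Control 2, against 3.29 and 3.27 in the Sox11 libraries, with a median of 3 in every library. Both Sox11 libraries lay above both Control libraries, by 0.307 on average. This mean is the sum of the detection shares of the 9 genes given above, so it is not a separate result. The largest differences in share were those of Bcl11b (14.5 percentage points) and Neurod6 (8.96), while Pou3f1 (-1.06) and Npr3 (-0.05) went the other way. No other set of genes was counted in this way. No gene of the 9 was detected in 1.63%, 1.68%, 0.615% and 0.876% of cortical nuclei, and at least 5 of them in 8.35%, 11.97%, 14.7% and 15.6%. In subcortical nuclei the mean was 0.617, 0.572, 0.560 and 0.681, and 50.6% to 55.2% of nuclei had none. Positive and negative nuclei of Sox11 1 had means of 3.38 and 3.17, and those of Sox11 2 of 3.35 and 3.22.

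**Figure D5:**
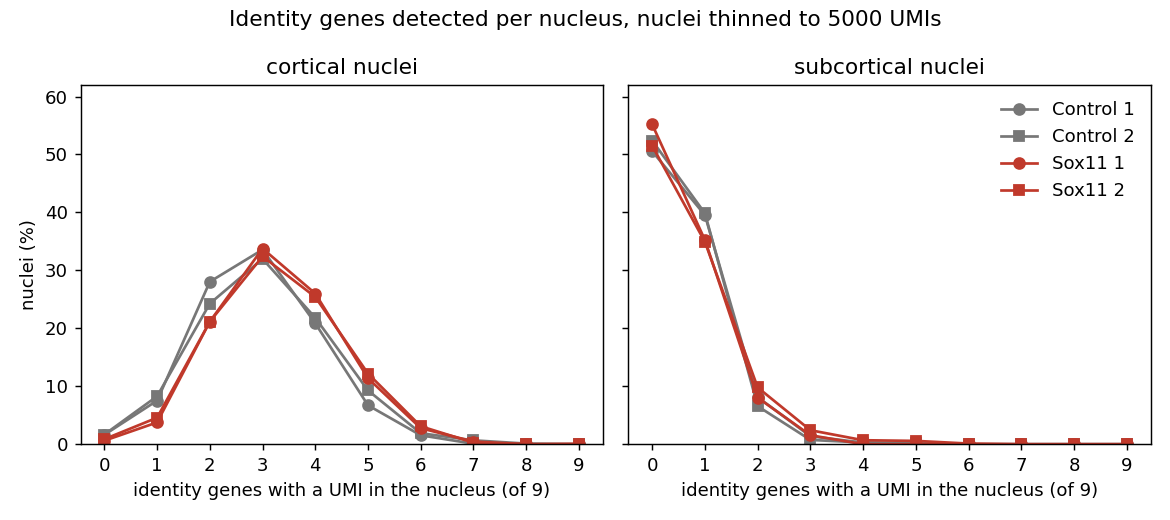
Share of nuclei (%) by the number of the 9 genes with a UMI, in cortical and in subcortical nuclei thinned to 5000 UMIs, 1 line per library. Cortical nuclei centre on 3 genes in all 4 libraries, and subcortical nuclei centre on 0.

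Co-detection of 2 genes was expressed as the share of nuclei with both over the product of the 2 shares, so that 1 means independence. Over the 36 pairs the median was 1.02, 1.03, 1.02 and 1.01 in Control 1, Control 2, Sox11 1 and Sox11 2. Without thinning it was 1.10, 1.05, 1.02 and 1.09, with 33 to 36 pairs over 1, where depth differs between nuclei. Fezf2 and Bcl11b, the first steps of the subcerebral network, gave 1.08 and 1.07 in Control and 1.02 and 1.04 in Sox11. Npr3 and Neurod6 were the 1 pair under 1 in every library, at 0.705 and 0.915 in Control and 0.817 and 0.832 in Sox11. Fezf2 and Neurod2 gave 1.15 and 1.13 in Control and 0.934 and 0.788 in Sox11, and Neurod2 and Neurod6 gave 0.768 and 1.27 against 1.10 and 1.21. Control and Sox11 did not overlap in 14 of the 36 pairs, 5 higher and 9 lower in Sox11, and these ratios of sparse counts carry no test. The share that does not overlap was not computed for other pairs of genes. Neither this count nor a single pair is therefore read as a shift.

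In subcortical nuclei the same genes were lower than in cortical nuclei, but not all were low. Ldb2 read 118.8 and 104.5 CPM in Control and 92.4 and 117.9 CPM in Sox11 subcortical sums. The cortical level was 3.47 to 4.92 times the subcortical level for Pou3f1 over the 4 libraries, 4.73 to 6.51 times for Bcl6 and 7.37 to 10.8 times for Ldb2. For the other 6 it was 7.87 to 37.3 times, with Neurod6 at 10.5 to 37.3 times and Fezf2 at 9.17 to 19.7 times. Neurod6 read 2.43 and 1.23 CPM (24 and 12 UMIs) in Control and 5.99 and 5.97 CPM (45 and 89 UMIs) in Sox11 subcortical sums. Bcl11b read 24.0 and 23.0 against 28.2 and 39.2 CPM, and Fezf2 2.93 and 1.64 against 2.40 and 3.22 CPM. The levels of 3 of the 9, Bcl11b, Bcl6 and Neurod6, were higher in both Sox11 libraries, against 35.5% of all genes that did not overlap, 14.6% higher and 20.9% lower.

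No gene was called between Sox11 and Control in subcortical nuclei by edgeR (0% of 16162 genes, 915 at an unadjusted p under 0.05), and DESeq2 called 4, none of them among the 9. Neurod6 gave 1.74 ± 0.39 as its log2 fold change (SE; edgeR adjusted p = 0.766, unadjusted p = 0.00146), and Bcl11b had one of 0.57 ± 0.21 (edgeR adjusted p = 0.852); both had an unadjusted p under 0.05. Without Control 1 Neurod6 was called, at 2.32 with an edgeR adjusted p of 0.0356. The difference of the Sox11 effect, cortical minus subcortical, was called for none of the 9 by edgeR or DESeq2, while 4.54% of 17999 genes were called by edgeR, 2.22% with a higher and 2.32% with a lower cortical effect; 1 of the 9, Neurod6, had an unadjusted p under 0.05. It was -1.02 ± 0.32 for Neurod6 (edgeR adjusted p = 0.101) and 0.01 for Bcl11b (edgeR adjusted p = 0.993). Without Control 1 the difference for Neurod6 was -1.80 (edgeR adjusted p = 0.00311) and that for Neurod2 was -1.63 (edgeR adjusted p = 0.0379), and with no filter on low counts that for Neurod6 was -0.98 (edgeR adjusted p = 0.0134). In nuclei with a UMI of Gad1 or Gad2 the levels lay in between, as for Fezf2 at 9.17, 13.1, 16.6 and 10.2 CPM. These nuclei were taken whatever their Slc17a7 or Slc17a6 UMIs, so excitatory or mixed nuclei may be among them, and their part in these levels was not tested.

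Other genes of cortical projection classes were read from 4 lists, of which the 25 further subcerebral genes had 24 tested. Between positive and negative nuclei 7 of these rose and 6 fell, against 14.9% and 15.5% of all genes, with a median log2 difference of 0.01. The 5 largest changes were falls, with log2 differences of -1.68 for Slco2a1, a prostaglandin transporter (edgeR adjusted p = 2.41e-16), -1.40 for Npnt, a matrix protein, and -0.91 for Cdh22, a cadherin. Nefh, the heavy neurofilament subunit, was at -0.89, and Igfbp4, which binds insulin-like growth factors, at -0.81. Against Control, where 7.61% of all genes were called higher and 6.1% lower, 5 rose and 4 fell in positive nuclei, among them S100a10 (1.52) and Opn3 (1.16), and Slco2a1 (-1.82), Nefh (-1.59) and Igfbp4 (-1.33). The called subcerebral genes thus went both ways, as the called genes did over all genes tested.

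Of 13 tested callosal and upper layer genes, 3 rose and 4 fell between positive and negative nuclei, against 14.9% and 15.5% of all genes. Rorb, a layer 4 nuclear receptor, was at 0.90 and Epha3, an ephrin receptor, at -0.68. Cdh10, a cadherin, was at 0.40, Inhba, an activin subunit, at -0.57 and Ptprk, a receptor phosphatase, at -0.48. Of 8 tested corticothalamic and layer 6 genes, Foxp2 (0.66) and Tle4 (0.35) rose and Zfpm2 (-0.71) fell. Among the pallial genes, Nfix (0.22) rose and Camk2a (-0.23) and Nfia (-0.21) fell. Between positive nuclei and Control, 7.61% of all genes were called higher and 6.1% lower. There the callosal list showed 1 rise (Rorb 1.05) and 2 falls (Epha3 -1.02, Dkk3 -0.68). The corticothalamic list showed 3 falls of 9 (Ccn2 -2.27, Syt6 -1.35, Zfpm2 -1.11), and none of 11 was called in the pallial list. By edgeR no gene of these 4 lists was called between all cortical nuclei of Sox11 and Control, against 2.43% of all genes.

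The genes whose level was most like that of each of the 9 were ranked by Pearson correlation of log2(CPM + 1) over 12 sums, the cortical, subcortical and Gad nuclei of the 4 libraries. These sums share libraries and depth and are of only 3 kinds of nuclei, so no p is given. Fezf2 was most like Nos1ap (0.998), Jcad (0.997) and Gpm6b (0.996). Bcl11b was most like Msra (0.995), Sox5 (0.994), itself a regulator of deep layer identity, and Tspan5 (0.993). Neurod6 was most like Msra (0.985), Boc (0.984) and Gm11266 (0.983), so Msra stood near both Neurod6 and Bcl11b. Bcl6 was most like Bcl11a, Crym like Gm13211, Pou3f1 like Rara, Npr3 like Gm50024, Ldb2 like Gpm6b and Neurod2 like A830036E02Rik.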

How the data were processed

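Single-nucleus RNA of 4 libraries (2 Control, 2 Sox11) was measured with the 10x Genomics 3′ kit v3.1. For each library the authors deposited raw UMI counts by gene and barcode. The submitters' processing notes name Cell Ranger 7.0.1 and mm10, while the file headers name 7.1.0, 7.1.0, 7.2.0 and 8.0.0; the sources used here do not say how intronic reads and strand were treated. Entries for vector sequences (at most 0.0504% of UMIs) were kept out of totals and tests. UMIs per library ranged from 34215523 to 61679959, over 2166 to 4383 barcodes. The injured, later time point and embryonic samples of the series' design are not analysed here.

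The nuclei were gated as the report states, UMIs were summed per library, and sums were tested with edgeR 4.0.16 (filterByExpr, TMM, quasi-likelihood, Benjamini-Hochberg over all genes; R 4.3.3). Positive against negative nuclei and the difference between cortical and subcortical effects were fitted with the library as a term. Thinning drew 5000 UMIs per nucleus (numpy 2.4.6); intervals are exact Clopper-Pearson (scipy 1.17.1). Doublets were left in. An alternative removed the barcodes with the highest scrublet scores (scanpy 1.11.5), with nuclei over 5% mitochondrial UMIs. The number removed as doublets was fixed by a rate of 0.8% per 1000 barcodes. Other alternatives were DESeq2 1.42.0, its size factors, no count filter, stricter gates, other splits, each library left out and the replicate block. The edgeR script was tested on simulated data. Of each gene list the rule for naming took members past the threshold, at most the 5 with the largest change, and of genes most like a member the top 3 over a mean of 5 CPM. The genes, lists and comparisons were chosen with earlier results of these data known. The result of 1 listed gene is not reported here.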

Additional observations from a re-analysis of the deposited data

Results flagged for a closer look

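In both Sox11 libraries the positive nuclei had more Bcl11b and Crym than the negative nuclei, and in both Control libraries less. The log2 ratio (1 CPM added) in Sox11 minus that in Control was 1.01 for Bcl11b and 1.06 for Crym. The difference was not tested, and the Control values rest on 18 and 15 nuclei.

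The effect of Sox11 differed between cortical and subcortical nuclei (edgeR adjusted p under 0.05; log2, cortical minus subcortical) for 9 genes named here, none of them among the 9 identity genes. Of 17999 genes tested, 4.54% were called in this comparison. The difference of the effect was 4.87 for Gpc2 and 3.82 for Zfp57, the genes of the split. Both were chosen with their difference between Sox11 and Control cortical nuclei known, so their calls are not read as a finding. For Zfpm2 the difference of the effect was -1.09 (edgeR adjusted p = 0.000787). It was -0.68 for Cdh22, -0.63 for Dkk3, -0.56 for Ntng1 and 0.86 for S100a10. It was -0.60 for P2ry12, a microglia marker, and 0.88 for Foxp4. Foxp4 was taken from a list of red nucleus or midbrain genes, but it was also counted in cortical nuclei and is not read as a midbrain marker here.

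Entries for vector sequences, which no comparison uses, held 262 UMIs in Sox11 1 and 31122 in Sox11 2, against 0 and 98 in the Control libraries. There were 13 such entries in each Sox11 library and 0 and 2 in the Control libraries, so the counts are not on 1 footing.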

How the results depend on the processing

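Counts of called genes depended on the setting more than the log2 fold changes of the called identity genes did, and the cause was not tested. Of the 9 identity genes, none was called in all cortical nuclei, 1 by DESeq2, 2 with the replicate block and 0 to 1 when a library was left out. Positive nuclei against Control had 2, and 1 to 2 when a library was left out. Subcortical nuclei had 0, and 0 to 1 when a library was left out. Positive against negative nuclei had 3, and 0 without the library term. The difference between cortical and subcortical effects had 0, 1 with no count filter and 0 to 2 when a library was left out. No setting called any of the 9 in negative nuclei.

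Over all genes, the 418 called in all cortical nuclei became 886 by DESeq2, 174 with nuclei thinned to 5000 UMIs, 1086 with the replicate block, and 294 to 1159 when a library was left out, with 1040 without Control 2 and 1159 without Sox11 2. The 3 in negative nuclei became 108 by DESeq2, 5 with its size factors, 404 with no filter, 11 without doublets and high mitochondrial nuclei, 41 with the replicate block and 5 to 232 when a library was left out. The 2216 in positive nuclei against Control became 3369 with no filter. The 0 in subcortical nuclei became 4 by DESeq2 and 0 to 150 when a library was left out. The 4857 in positive against negative nuclei became 1587 by DESeq2, 2122 thinned and 7 without the library term. The 817 in the difference became 348 by DESeq2, 1400 with no filter, 430 thinned and, in a setting chosen after seeing the data, 28 without the library term. The Sox11 minus Control difference in identity genes per nucleus, 0.307 at 5000 UMIs, was 0.233 at 2500, 0.226 at 10000 and 0.613 unthinned, also chosen after seeing the data.

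Replicate numbers are shared by the groups, but the deviations of same-numbered libraries correlated at only 0.0772 across 17231 genes, so the replicate block is not taken as a pairing.

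Among the 9 genes, signs changed only in comparisons that did not call the gene with all 4 libraries; Neurod2 in the difference, called without Control 1 at -1.63, was 0.46 without Control 2. Leaving out a library gave log2 fold changes in all cortical nuclei of -0.089 to 0.017 for Fezf2, -0.078 to 0.37 for Crym, -0.091 to 0.41 for Bcl6, -0.30 to 0.045 for Pou3f1 and -0.058 to 0.22 for Ldb2. In negative nuclei it gave -0.14 to 0.014 for Fezf2, -0.18 to 0.30 for Crym, -0.042 to 0.43 for Bcl6 and -0.046 to 0.21 for Ldb2. In positive nuclei against Control it gave -0.046 to 0.015 for Fezf2, -0.14 to 0.36 for Bcl6, -0.38 to 0.091 for Pou3f1 and -0.045 to 0.24 for Ldb2. In subcortical nuclei it gave -0.0047 to 0.84 for Fezf2, -0.052 to 0.77 for Crym, -0.13 to 0.11 for Pou3f1, -0.054 to 0.44 for Npr3, -0.24 to 0.11 for Ldb2 and -0.040 to 1.75 for Neurod2. In positive against negative nuclei 1 library alone, with no test, gave -0.031 to 0.076 for Fezf2, -0.18 to 0.0047 for Bcl6, -0.17 to 0.079 for Pou3f1, -0.054 to 0.074 for Ldb2 and -0.12 to 0.37 for Neurod2. In the difference it gave -0.35 to 0.46 for Bcl11b, -0.85 to 0.12 for Crym, -0.38 to 0.090 for Pou3f1, -0.11 to 0.38 for Ldb2 and -1.63 to 0.46 for Neurod2.

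Thinning gave 0.0080 for Npr3 in all cortical nuclei, 0.068 for Fezf2 in negative nuclei, 0.25 for Pou3f1 and -0.58 for Npr3 in subcortical nuclei, -0.16 for Fezf2 in positive against negative nuclei, and 0.078 for Crym and 0.54 for Npr3 in the difference. In positive against negative nuclei, Fezf2 was -0.086 with Gpc2 alone, -0.041 with Zfp57 alone and -0.098 with at least 2 UMIs. Ldb2 was -0.030 with Zfp57 alone, -0.0022 with at least 2 UMIs, -0.0088 and Pou3f1 0.031 with 10000 to 40000 UMIs, and Ldb2 was -0.0016 without doublets. Where a library was left out, the lone library of its group was assumed to vary like the others. The Control subcortical sums held 24 and 12 UMIs of Neurod6, which limits its precision there.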
